A study of Arabidopsis thaliana with 30 samples.

Results

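The gene set described here held 64 Arabidopsis thaliana genes whose signal in the xylem-pole pericycle of mock-treated roots lay well above that in the other sorted root tissues. A probe set was a member if its mean log2(signal + 16) in the mock pericycle was at least 1.5 above the mean in each of the mock stele, epidermis and columella, and if its mean mock pericycle signal was at least 100. Of 13513 probe sets that were annotated with 1 gene, 70 met both thresholds. Among these, 6 belonged to families that the rule leaves out: BCAT4, 3 class III peroxidases and 2 AAA-type ATPases. The peroxidases and ATPases were recognised by hand from their locus numbers, since the annotation used gives no families, so a member of these families without a symbol may have been missed. LBD16 and GTR1 were also on that exclusion list but missed the threshold, with margins over the next highest tissue of 1.25 and 0.94 on the log2 scale. Each of the 64 remaining probe sets represented a different gene, so the members were selected on the mock signals of the 4 sorted tissues and on nothing else but these families.

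Col-0 seedlings aged 1 week received 5 µM of the natural auxin indole-3-acetic acid (IAA) for 2 h, or solvent alone as the mock treatment. After digestion of the root cell walls for 1 h, cells of 4 tissues were collected by fluorescence-activated sorting on a reporter: pWOL::GFP for the stele, the enhancer trap E3754 for the xylem-pole pericycle, pWER::GFP for the epidermis with the lateral root cap, and the enhancer trap PET111 for the columella. Digestion medium of the auxin samples also held 5 µM IAA, so sorted cells had been digested, sorted and exposed for longer than the intact, undigested roots. With 3 arrays for each of 5 sample types under each treatment there were 10 groups and 30 arrays. Each tissue was represented by 1 reporter line, so tissue and line cannot be told apart, and no sorted population was labelled as cortex or endodermis. The labels do not state that the arrays of a group came from separate cultures, so the p-values reflect spread among the deposited samples, some or all of which may be technical.

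The pericycle is the outermost cell layer of the root's vascular cylinder and lies just inside the endodermis. Its cells at the xylem poles are the founder cells of lateral roots, whose initiation is driven by auxin. Pericycle and xylem parenchyma cells also pass mineral ions into the xylem for transport to the shoot.

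Markers gave only a limited check of the pericycle label. A listed gene counted as measured only if a probe set was annotated with it alone. Since 8730 of 22810 probe sets were unnamed here, other listed genes may be on the array. AT1G67870 was the single measured gene among 15 listed for the pericycle and xylem loading. It was itself a member, so the label could not be checked on an independent marker. None of the 11 xylem or 12 suberin genes listed had a probe set annotated with 1 gene. RCPG was the only measured gene of 7 listed for the root cap. Its mock signals were 3470 to 4063 in the pericycle, 689 to 888 in the stele and 6872 to 19209 in the columella. Mock epidermis arrays, whose reporter includes the lateral root cap, read 1220 to 2352, and mock intact roots 69.9 to 137. In the auxin-treated pericycle RCPG lay at 1186 to 2143, against 245 to 462 in the auxin-treated stele. It read 799 to 1387 in the auxin-treated epidermis, 5903 to 9894 in the columella and 99.9 to 185 in intact roots. For the 3 measured epidermis and root hair genes (EXPA7, EXPA18 and XTH26), summed signals were 115 to 347 in mock pericycle arrays and 527 to 754 in mock epidermis arrays. In auxin-treated arrays these sums overlapped, at 12.2 to 88.4 in the pericycle and 51.8 to 70.2 in the epidermis, and lay at 2636 to 3220 in intact roots. The 4 measured endodermis and cortex genes of 13 summed to 449 to 650 in mock pericycle and 320 to 367 in mock stele arrays, and to 425 to 552 and 289 to 536 with auxin. Of these, the cortex gene C1 was higher in the auxin-treated pericycle than in the stele (1.21 ± 0.35, SE, limma adjusted p = 7.69e-03). SGN3 (-0.13, adjusted p = 0.747) and JKD (-0.35, adjusted p = 0.463) were not called in that comparison. C1 was not called against the auxin-treated epidermis (0.01) or columella (-0.88). SGN3 was higher than in the auxin-treated epidermis (0.98 ± 0.28, SE, limma adjusted p = 7.33e-03) and was not called against the columella (0.40, adjusted p = 0.336). JKD was not called against the epidermis (0.07) or columella (-0.77). CO2, the other gene in these sums, did not pass the filter on low signal and was not tested. OPS, the only measured gene of 9 for the phloem, read 180 to 272 in mock pericycle and 181 to 287 in mock stele arrays. In the auxin-treated pericycle it exceeded the mean of stele, epidermis and columella (0.95 ± 0.24, SE, adjusted p = 2.61e-03) and was not called against the stele (0.36, adjusted p = 0.358). Whether cells of other types contributed to the differences below was not tested.

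Array medians ranged from 54.4 to 82.9, and arrays of a group correlated across probe sets with r between 0.938 and 0.982. One pericycle array stood apart for the members: auxin replicate 3 was the highest of its group for 52 of 64. Median log2 values of the members on the 3 auxin-treated pericycle arrays were 8.40, 8.62 and 9.12, whereas the medians over all 9442 tested probe sets were 7.18, 7.15 and 7.14. Mock pericycle replicate 2 was the lowest of its group for 38 members, with member medians of 8.42, 7.97 and 8.29 on the 3 arrays. In samples of sorted cells and of whole roots alike, fewer cells of a type and less RNA per cell cannot be told apart.

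In the mock arrays that chose them, the members exceeded the next highest sorted tissue by a median of 2.08 on the log2 scale. That next tissue was the stele for 46 members, the columella for 14 and the epidermis for 4. Members just inside the threshold were AT5G22530, with a margin of 1.502, AT2G48090 with 1.52 and AT1G19540 with 1.55. Just outside it lay AT4G24130 at 1.48, BIK1, a receptor-like cytoplasmic kinase of plant immunity, at 1.48 and EXLA3, an expansin-like gene, at 1.46. AT1G67870 was farthest above the threshold: its mock pericycle signals were 1139, 1120 and 3904, whereas none of the 9 mock arrays of the other sorted tissues exceeded 9.72. All of these values were used by the selection and describe the members only.

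**Figure D1:**
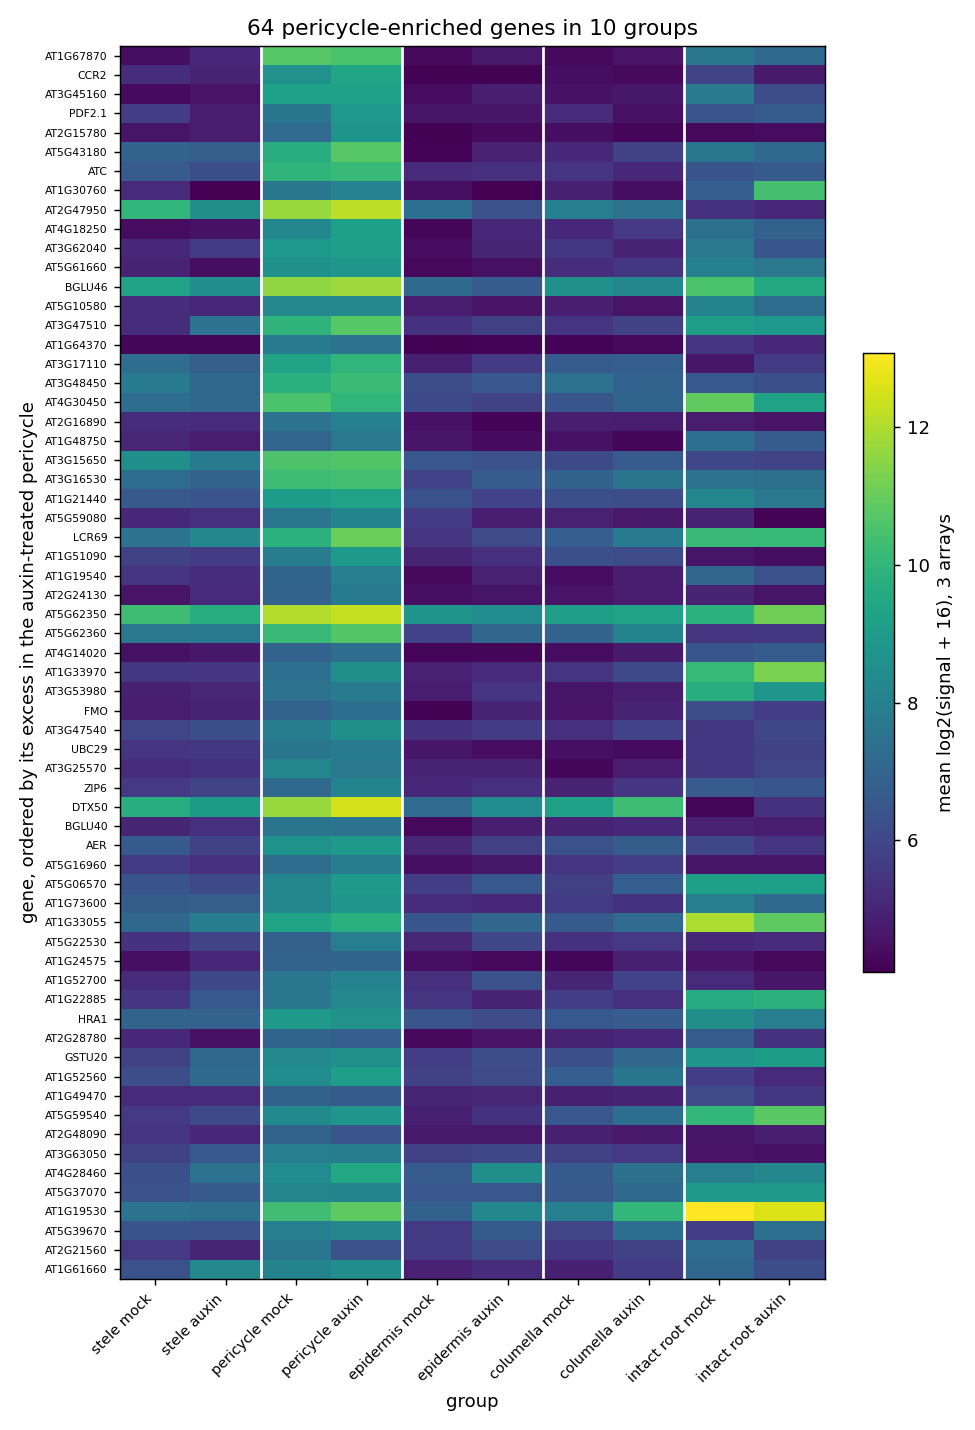
Mean log2(signal + 16) of the 64 genes (rows, ordered by their excess in the auxin-treated pericycle) in the 10 groups (columns, 3 arrays each). The pericycle columns are brighter than the other sorted tissues under the same treatment in nearly every row, while AT1G61660 in the auxin-treated stele and AT1G19530 in the intact root are as bright as or brighter than in the pericycle.

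The first question was whether these genes also stood above the other tissues in auxin-treated arrays, which the selection had not used. They did for nearly every member: 63 of 64 were higher in the auxin-treated pericycle than in the mean of auxin-treated stele, epidermis and columella, and 0 were lower at an adjusted or an unadjusted p under 0.05 (limma, Benjamini-Hochberg over 9442 probe sets). Over all tested probe sets, 13.1% were higher and 12.4% lower in this comparison. The median difference of the members was 3.01 on the log2 scale, with a range from 0.67 to 5.74, against a median of -0.05 over all tested probe sets. All 64 members passed the filter on low signal, and all 64 also did so on the 18 arrays that the selection had not used. Those 18 include the 3 auxin-treated pericycle arrays, as many as the filter asks for. A member high only in the pericycle could therefore pass. AT2G15780, for example, read at most 20.8 on any array outside the pericycle and 259, 333 and 808 in the auxin-treated pericycle. Likewise, AT1G24575, AT1G26560 and AT2G24130 read at most 25.0, 33.5 and 35.7 on any array outside the pericycle. For such members, passing the filter and being higher in the pericycle are not independent, so their calls are no separate support. How many members passed only through the pericycle was not counted, and the 63 called higher include them.

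Against single tissues, 63 members were higher than in the auxin-treated stele (13.6% of all tested probe sets), 63 than in the epidermis (15.5%) and 61 than in the columella (11.7%). Against all 3 tissues at once, 60 members were higher (5.04% of all tested). Without auxin replicate 3 of the pericycle, the array that stood apart, the counts were 63 against the mean of the other tissues and 63, 63 and 61 against the single tissues. The median difference was 2.80 from the stele, 3.36 from the epidermis and 2.92 from the columella. For 61 members every auxin-treated pericycle array lay above all 9 auxin-treated arrays of the other tissues, a separation found for 6.6% of all tested probe sets. Applying the selection thresholds to auxin-treated in place of mock arrays gave 134 probe sets. The lists shared 53 probe sets, which were 82.8% of the members and 39.6% of the auxin list.

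**Figure D2:**
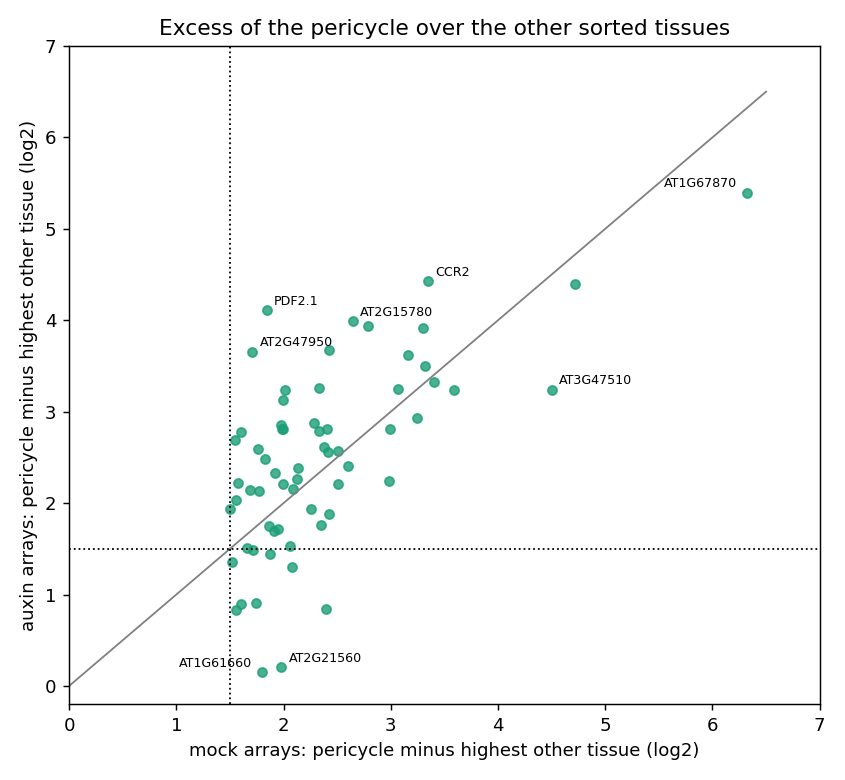
Excess of the pericycle mean over the highest of the other 3 sorted tissues for each of the 64 genes, in mock arrays (horizontal axis, the values that chose the genes) and in auxin-treated arrays (vertical axis), in log2 units. Dotted lines mark 1.5 and the solid line marks equal values: 54 genes lie above 1.5 in the auxin-treated arrays (1.65% of all tested probe sets), and AT1G61660 and AT2G21560 lie near 0.

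AT1G67870 had the largest difference. Its auxin-treated pericycle signals were 878, 1542 and 2314, against stele signals of 2.79, 32.9 and 31.3, epidermis signals of 14.4, 5.65 and 10.7 and columella signals of 15.97, 6.06 and 2.01. Every pericycle array was far above every array of the other sorted tissues. The difference from their mean was 5.74 ± 0.31 (SE, n = 3 arrays per group, limma adjusted p = 9.30e-17). AT5G43180 (4.90), AT2G47950 (4.75), AT3G45160 (4.55), AT3G47510 (4.38) and AT2G15780 (4.32) followed among the genes that carry no symbol in the annotation used, which 51 of the 64 members lack.

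The 13 members with a symbol fell into transport, defence peptides, metabolism and regulation, and each of them was higher in the auxin-treated pericycle than in each of the 3 other tissues. Both transporters were among them. ZIP6, of the ZIP family of zinc and iron transporters, had auxin-treated pericycle signals of 279, 261 and 268, against 45.2, 49.0 and 42.1 in the stele and at most 36.4 on any epidermis or columella array. Its difference from the mean of the other tissues was 2.57 ± 0.25 (SE, limma adjusted p = 4.27e-10). DTX50, a MATE-type efflux carrier known to export abscisic acid, had signals of 3496, 5537 and 9838 in the auxin-treated pericycle. In the auxin-treated columella, the next highest tissue, DTX50 lay at 1537, 801 and 1503, and in the stele at 560, 469 and 459. The groups did not overlap, and the difference was 3.27 ± 0.25 (SE, adjusted p = 6.53e-13).

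Both defensins, small secreted peptides of plant defence, were highest in the pericycle. PDF2.1 had signals of 437, 396 and 543 in the auxin-treated pericycle and at most 20.6 on any array of the other auxin-treated tissues. Its difference was 4.25 ± 0.30 (SE, adjusted p = 9.74e-14). LCR69, also named PDF2.2, had signals of 1519, 2152 and 2713 in the auxin-treated pericycle, with 304, 274 and 282 in the stele and 825, 41.1 and 214 in the columella. The pericycle arrays stayed above all of these, although the columella arrays spread widely, and the difference was 3.62 ± 0.41 (SE, adjusted p = 8.56e-09). The genes of the pair lie on chromosome 2 with 1 gene between them.

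Among 6 enzymes of metabolism the differences from the mean of the other tissues ran from 1.83 for GSTU20 to 4.91 for CCR2. CCR2, a cinnamoyl-CoA reductase of the pathway to lignin monomers, had signals of 571, 552 and 858 in the auxin-treated pericycle, 19.1, 13.6 and 12.1 in the stele and at most 10.1 on any epidermis or columella array. The pericycle arrays did not overlap with any other sorted arrays (4.91 ± 0.27, SE, adjusted p = 9.30e-17). BGLU46, a beta-glucosidase that acts on glucosides of lignin monomers, had auxin-treated pericycle signals of 2871, 2981 and 4755, against 288, 257 and 549 in the stele. Its difference was 3.96 ± 0.23 (SE, adjusted p = 5.01e-16). Of the other enzymes, AER, an alkenal reductase that detoxifies reactive carbonyls, differed by 2.78, the beta-glucosidase BGLU40 by 2.43 and the flavin monooxygenase FMO by 2.40.

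GSTU20, a tau-class glutathione S-transferase, was the member on a list of 25 genes of methionine-derived glucosinolates, defence compounds of the cabbage order. Its signals were 322, 415 and 397 in the auxin-treated pericycle and 97.0, 137 and 129 in the stele, with no overlap (1.83 ± 0.23 from the mean of the other tissues, SE, adjusted p = 1.57e-07). Only 4 genes of that list had a probe set annotated with 1 gene. Of these, 2, GSTU20 and the glucosinolate transporter gene GTR2, were higher in the auxin-treated pericycle. The other listed genes measured, UGT74C1 (0.43, limma adjusted p = 0.316) and UGT74B1 (0.41, adjusted p = 0.143), were not called. The list median was 1.05, against -0.05 over all tested probe sets. It includes GSTU20, which was selected for its high mock pericycle signal, so it is no independent result about the list. GTR2 was lower in the auxin-treated pericycle than in the intact root (-2.09 ± 0.23, SE, adjusted p = 1.94e-09). None of the 3 measured genes of lateral root initiation was a member. LBD29, a transcription factor that acts in that process, was higher by 1.83 ± 0.28 (SE, adjusted p = 6.18e-06), whereas PUCHI and ACR4 did not pass the test against the mean of the other tissues. The mean LBD29 signal was 67.0 in the auxin-treated pericycle and 1862 in the auxin-treated intact root (-4.52 ± 0.35, SE, limma adjusted p = 1.91e-13). PUCHI was lower in the auxin-treated pericycle than in the stele (-2.17 ± 0.35, SE, adjusted p = 1.54e-05).

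Among regulatory genes, ATC, a relative of the flowering repressor TFL1, had signals of 1195, 600 and 1966 in the auxin-treated pericycle, against 79.1, 44.9 and 58.4 in the stele and at most 34.2 in the epidermis and columella. Even its lowest pericycle array was above all of the others (4.60 ± 0.29, SE, adjusted p = 7.91e-15). The ubiquitin-conjugating enzyme gene UBC29 differed by 3.04 ± 0.36 (SE, adjusted p = 3.36e-08), with pericycle signals of 108, 131 and 581 that spread widely. HRA1, a transcription factor that attenuates the response to low oxygen, differed by 2.05 ± 0.30 (SE, adjusted p = 1.53e-06), with pericycle signals of 559, 414 and 233 and at most 171 on any array of the other tissues.

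**Figure D3:**
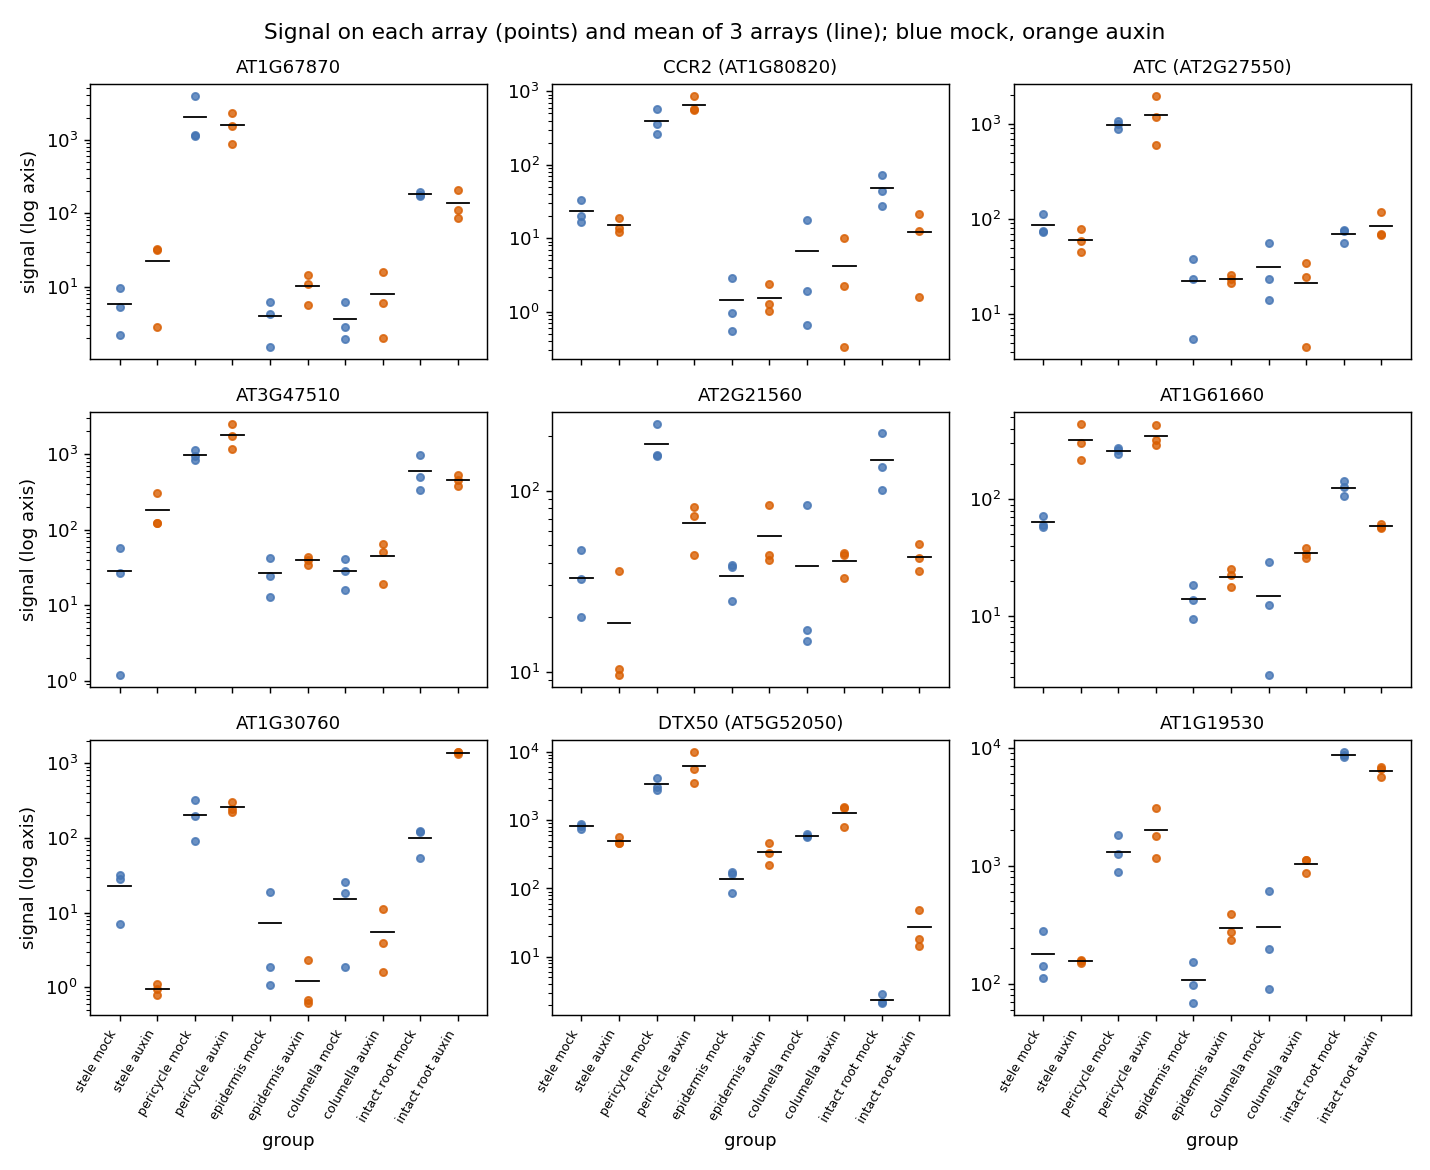
Signal on each array (points, blue for mock and orange for auxin) and group mean (line) for 9 genes on a logarithmic axis, in the 4 sorted tissues and the intact root. AT1G67870, CCR2 and ATC stay high in both pericycle groups, AT2G21560 is lower in the auxin-treated pericycle, AT1G61660 is level with the pericycle in the auxin-treated stele, and AT1G30760 is highest in the auxin-treated intact root.

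Few members were close to another tissue under auxin, and those are described here with their values. AT2G21560 was the member not called against the mean of the other tissues (0.67 ± 0.29, SE, limma adjusted p = 0.0846). Its mock pericycle signals of 155, 233 and 157 lay above its auxin-treated signals of 44.0, 72.8 and 81.7, which overlapped with 44.2, 83.3 and 41.2 in the auxin-treated epidermis. It was the only member whose auxin-treated pericycle arrays all lay below the mock arrays.

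AT1G61660 came level with the stele. Its signals in the stele were 72.1, 59.7 and 58.2 in mock and 304, 215 and 438 in auxin-treated arrays, while those in the pericycle were 242, 274 and 263 in mock and 288, 322 and 430 in auxin-treated arrays. The auxin-treated stele and pericycle overlapped, and their difference was 0.15 ± 0.27 (SE, adjusted p = 0.703). In the epidermis and columella it stayed at 38.4 or below under auxin.

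Against the columella, AT2G21560 (0.51, adjusted p = 0.328), AT1G19530 (0.84 ± 0.38, SE, adjusted p = 0.108) and AT5G39670 (0.83 ± 0.41, SE, adjusted p = 0.149) did not pass the limma test. AT1G19530 had columella signals of 90.2, 197 and 614 in mock and 867, 1111 and 1125 in auxin-treated arrays, the latter close to the lowest of its auxin-treated pericycle signals of 1164, 1771 and 3087. Other members with small differences from the mean of the 3 tissues still passed the test: AT5G37070 with 1.33, AT1G49470 with 1.58, AT2G48090 with 1.62, AT4G28460 with 1.67 and AT3G63050 with 1.82.

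Auxin minus mock in a sorted tissue is given as a description with no test, since the selection used the mock arrays. In the pericycle the median change of the members was 0.43 on the log2 scale, against 0.07 over all tested probe sets, and the mean was higher under auxin for 51 of 64. Without auxin replicate 3 of the pericycle the median change was 0.22 and 42 members had a higher mean, and without mock replicate 2 these values were 0.21 and 47. For 17 members all auxin-treated pericycle arrays lay above all mock arrays (13.2% of all tested probe sets), for 1 they lay below (10.1%), and for 46 the groups overlapped.

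The changes in the pericycle ranged from -1.27 for AT2G21560 to 1.498 for AT2G15780. AT2G15780 had signals of 217, 81.7 and 138 in mock and 259, 333 and 808 in auxin-treated pericycle arrays. PDF2.1 went from 314, 185 and 89.1 to 437, 396 and 543, a change of 1.30, and LCR69 from 971, 773 and 990 to 1519, 2152 and 2713, a change of 1.18. In none of these genes did the mock and auxin-treated arrays overlap.

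AT1G33970 (1.20) and AT5G22530 (1.06) completed the 5 largest increases of the mean. After AT2G21560, the largest decreases were those of AT3G25570 (-0.59), AT4G30450 (-0.52), AT2G48090 (-0.51) and AT1G64370 (-0.28), and in each of them the mock and auxin-treated arrays overlapped. AT1G67870 was level within its spread, at a change of -0.22 with overlapping arrays.

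In the other sorted tissues the median change of the members was -0.01 in the stele (0.14 over all tested), 0.26 in the epidermis (0.07) and 0.25 in the columella (0.05). Auxin-treated arrays lay above all mock arrays for 11 members in the stele, 15 in the epidermis and 11 in the columella, where 25.3%, 16.3% and 12.8% of all tested probe sets did so. They lay below all mock arrays for 6, 4 and 4 members, beside 15.5%, 13.6% and 10.5% of all tested.

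The largest changes of single members were found outside the pericycle. AT3G47510 had stele signals of 26.4, 57.2 and 1.21 in mock and 123, 123 and 306 in auxin-treated arrays (2.29 on the log2 scale), which remained below its auxin-treated pericycle signals of 1157, 1768 and 2495. AT1G61660 changed by 2.03 in the stele, AT1G19530 by 2.11 in the columella and AT4G28460 by 1.87 in the epidermis. AT2G47950 went the other way in the stele, from 796, 960 and 1325 to 379, 291 and 406 (-1.46), and in the epidermis, where it changed by -1.04. In the pericycle its arrays read 2838, 2882 and 4476 in mock and 3455, 4999 and 5894 with auxin, and these overlapped.

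Intact roots showed that high signal in sorted pericycle did not go with 1 common level in the whole organ. Under auxin, 48 members were higher in the sorted pericycle than in the intact root (25.9% of all tested probe sets), 8 were lower (24.7%), and the median difference was 2.05. Without auxin replicate 3 of the pericycle these counts were 46 and 8. The mean of the other 3 auxin-treated tissues was higher than the intact root for 12 members (31.3% of all tested) and lower for 36 (27.3%), with a median difference of -0.90. These comparisons share the auxin-treated intact arrays. They also hold the effects of digestion, sorting and longer IAA exposure, which cannot be told apart from tissue here.

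DTX50 had the largest difference between the auxin-treated pericycle and the intact root. Its intact root signals were 2.83, 2.14 and 2.16 in mock and 48.7, 14.4 and 18.5 in auxin-treated arrays, below every one of the 24 sorted arrays. The auxin-treated pericycle exceeded the auxin-treated intact root by 7.14 ± 0.30 and the mean of the other sorted tissues exceeded it by 3.88 ± 0.25 (SE, limma adjusted p = 1.31e-20 and 4.96e-16). AT2G47950 differed likewise by 7.09 and 2.34, and AT5G62360 by 5.12 and 2.07.

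AT1G67870 had intact root signals of 178, 172 and 191 in mock and 210, 110 and 86.8 in auxin-treated arrays, between the pericycle and the other sorted tissues. The auxin-treated pericycle was 3.37 ± 0.38 above the intact root and the mean of the other tissues lay below it, with a log2 difference of -2.36 ± 0.31 (SE, adjusted p = 2.85e-09 and 4.96e-08). For ATC these differences were 3.53 and -1.07, and for PDF2.1 they were 2.16 and -2.09. CCR2 was 4.63 higher in the pericycle, while the difference of the other tissues from the intact root was not called (-0.28 ± 0.27, SE, adjusted p = 0.386).

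The 8 members lower in the auxin-treated pericycle than in the intact root were AT1G33970 (-2.70 ± 0.23, SE, adjusted p = 2.04e-12), AT1G30760, AT5G59540, AT1G19530, AT1G22885, AT1G33055, AT3G53980 and AT5G37070. Without auxin replicate 2 of the pericycle, 5 were called. AT1G19530 had signals of 8690, 9117 and 8270 in mock and 5675, 6803 and 6522 in auxin-treated intact roots, and the highest of its 24 sorted arrays read 3087. The pericycle was lower than the intact root by a log2 difference of -1.76, and the mean of the other sorted tissues by -4.06. GSTU20 (-0.43), LCR69 (0.92) and HRA1 (0.70) did not pass the test between auxin-treated pericycle and intact root.

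**Figure D4:**
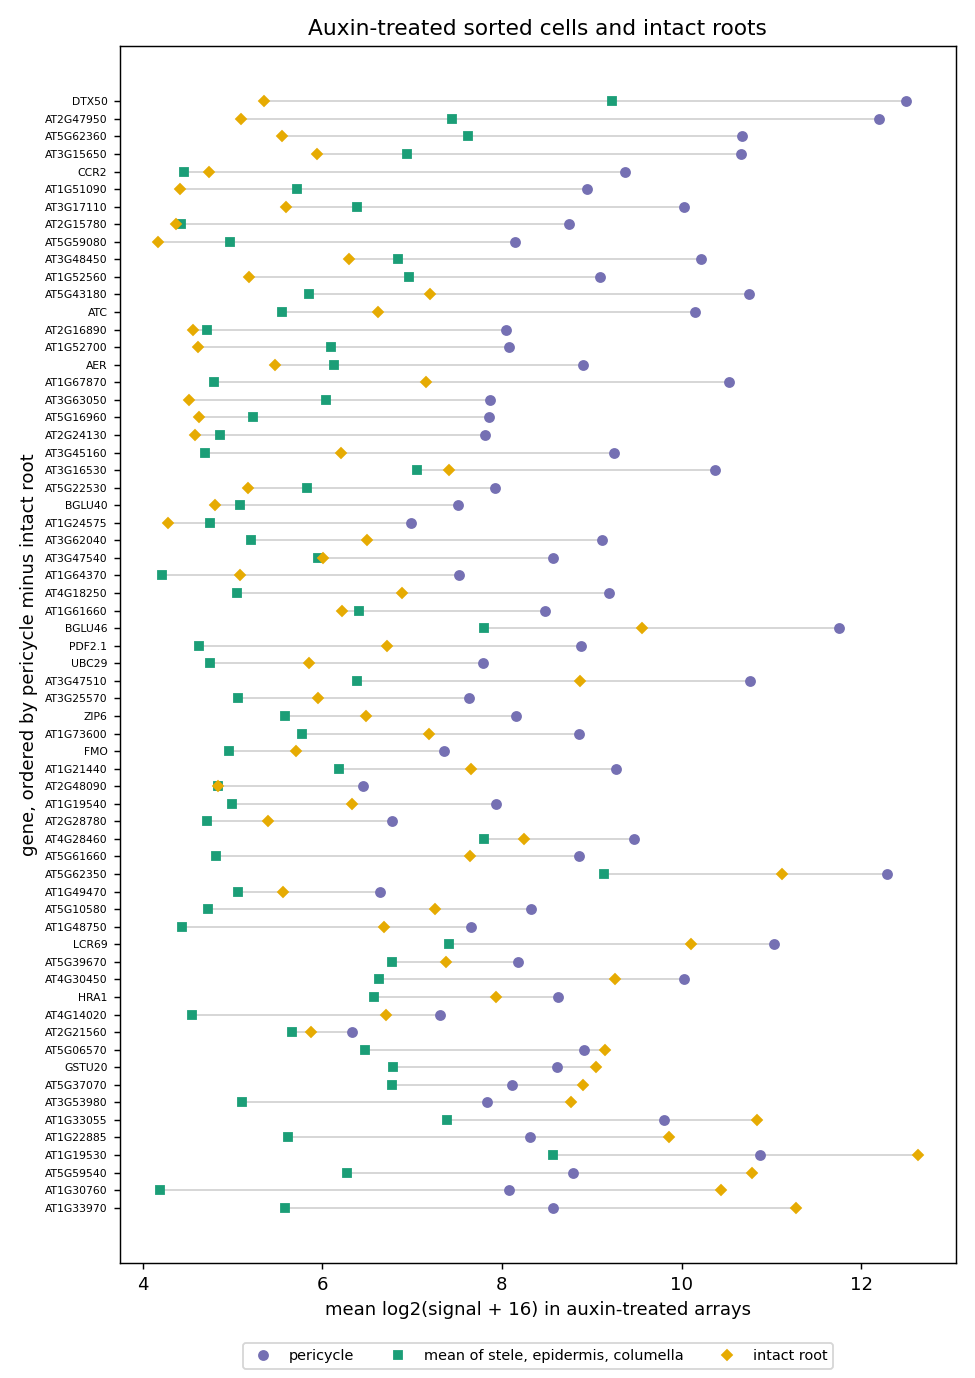
Mean log2(signal + 16) of each gene in auxin-treated arrays: pericycle (circles), the mean of stele, epidermis and columella (squares) and intact root (diamonds), 3 arrays per group, ordered by pericycle minus intact root. The circle lies right of the square for all 64 genes, and the diamond lies right of the circle for the 10 genes at the bottom of the plot.

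The auxin response of intact roots was measured on 6 arrays that played no part in the selection. Of the 64 members, 5 were higher with auxin (6.58% of all tested probe sets), 9 were lower (5.31%) and 50 were not called by limma. At an unadjusted p under 0.05 there were 7 higher and 12 lower. The share of all tested probe sets at that threshold was not computed, so these 2 counts are a description only. The median change was -0.27, against -0.02 over all tested. The count of lower members was 4 without mock replicate 1 of the intact root, 4 without auxin replicate 2 and 5 without auxin replicate 3.

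AT1G30760 had the largest rise. Its intact root signals were 119, 123 and 54.6 in mock and 1402, 1393 and 1323 in auxin-treated arrays, which did not overlap (3.66 ± 0.36, SE, limma adjusted p = 9.65e-10). In the sorted pericycle it read 199, 90.3 and 317 in mock and 246, 222 and 303 in auxin-treated arrays, and these overlapped. In the auxin-treated stele it lay at 1.10, 0.78 and 0.96.

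AT5G39670 rose by 1.65 ± 0.41 (SE, adjusted p = 4.50e-03), AT5G62350 by 1.30 ± 0.28 (SE, adjusted p = 1.06e-03), DTX50 by 1.15 ± 0.30 (SE, adjusted p = 7.57e-03) and AT1G33970 by 1.14 ± 0.23 (SE, adjusted p = 4.23e-04). AT1G33970 read 1043, 1116 and 1153 in mock and 2534, 2577 and 2263 in auxin-treated intact roots, and 165, 175 and 116 in mock and 437, 316 and 349 in auxin-treated pericycle. In both sample types all auxin-treated arrays lay above all mock arrays. The call of DTX50 was lost without auxin replicate 1 of the intact root (0.82) and with a pseudocount of 64 (0.44), and that of AT5G39670 without mock replicate 1 (1.30).

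AT4G30450 had the largest fall, with intact root signals of 2243, 1855 and 1593 in mock and 939.5, 511 and 437 in auxin-treated arrays and no overlap (-1.63 ± 0.33, SE, limma adjusted p = 5.81e-04). AT3G45160 fell from 187, 149 and 294 to 75.9, 69.4 and 34.9 (-1.57 ± 0.35, SE, adjusted p = 1.60e-03). AT2G21560, whose auxin-treated pericycle arrays also lay below the mock arrays, read 207, 135 and 100.3 in mock and 36.0, 50.8 and 42.3 in auxin-treated intact roots (-1.42 ± 0.35, SE, adjusted p = 4.84e-03). All 3 genes had lower arrays throughout the auxin-treated intact roots than in the mock.

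CCR2 and BGLU46 had log2 changes of -1.20 ± 0.33 and -0.995 ± 0.28 (SE, adjusted p = 0.0119 and 0.0142), which were the falls among genes with a symbol. BGLU46 read 1669, 1491 and 1313 in mock and 803, 696 and 716 in auxin-treated intact roots, with no overlap. CCR2 read 44.1, 27.2 and 72.3 and then 1.61, 12.8 and 21.6. AT2G28780 (-1.30), AT3G62040 (-1.20), AT1G33055 (-1.13) and AT1G61660 (-0.92) were the other members called lower. Of the 9 members called lower, all but AT4G30450 lost the call in at least 1 fit without an intact root array or with a pseudocount of 1. Beside these intact root values, 6 of the 9 lower members had a higher mean in the auxin-treated than in the mock pericycle and 3 had a lower one, and all 5 higher members had a higher mean there. For 2 members, AT1G19540 and AT1G61660, all auxin-treated arrays lay above mock in the pericycle and below it in the intact root (1.36% of all tested probe sets), and for 0 the reverse held (0.794%).

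**Figure D5:**
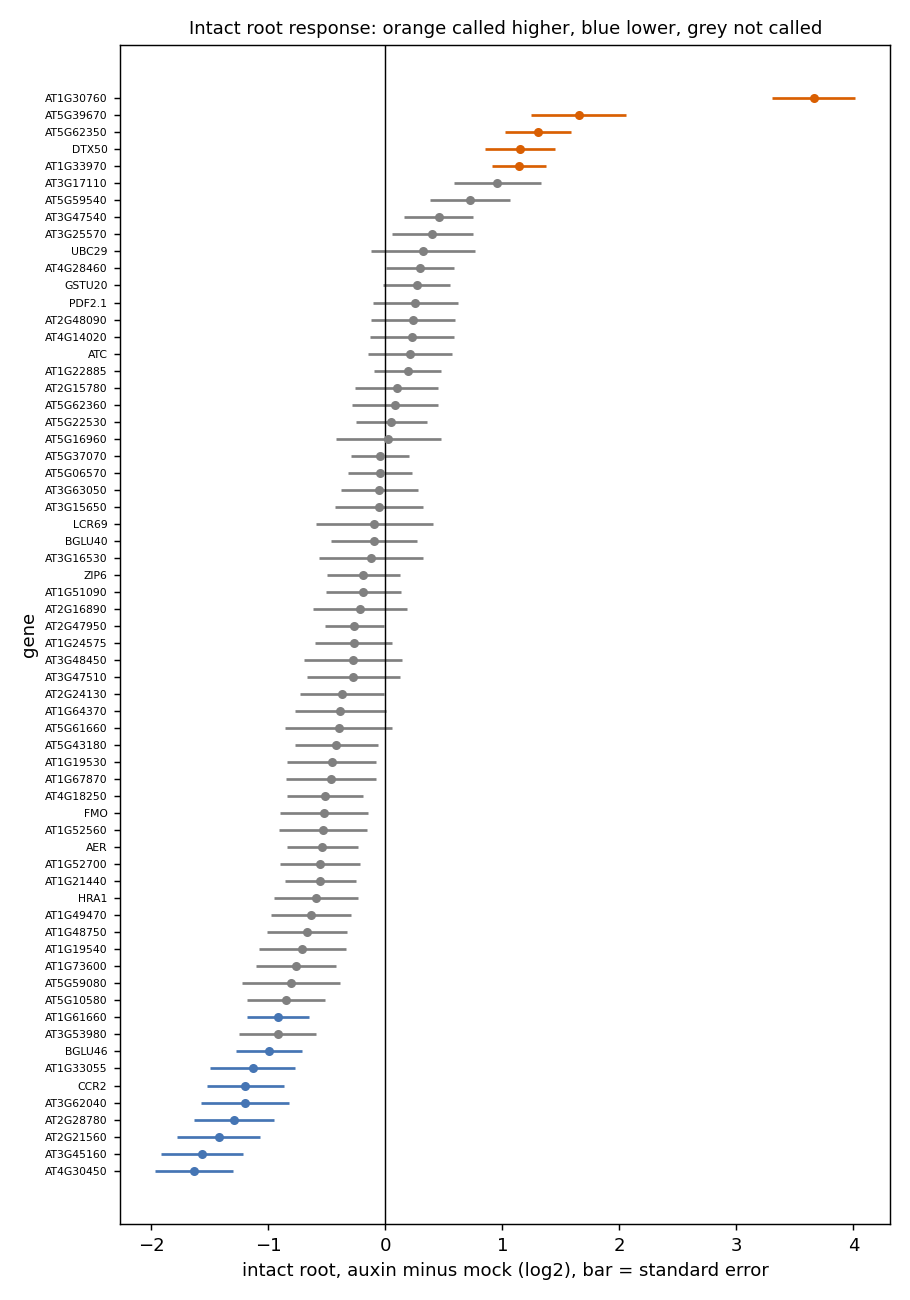
Change of each of the 64 genes from mock to auxin-treated intact roots, as log2 difference with its standard error (limma, 3 arrays per group), in order of size. AT1G30760 stands out at 3.66, and the 14 called genes are marked apart from the 50 that were not called.

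The members were spread over the 5 chromosomes, with 22 on chromosome 1, 12 each on chromosomes 2 and 3, 4 on chromosome 4 and 14 on chromosome 5. In 5 cases a pair of members lay within 5 genes of each other, which involved 10 members: AT1G19530 with AT1G19540, LCR69 with PDF2.1, AT3G47510 with AT3G47540, AT5G16960 with AER, and AT5G62350 with AT5G62360. The shares of all genes by chromosome or in such pairs were not computed, so these counts are a description only. Neighbours did not share their whole pattern. Under auxin, AT1G19530 was lower in the pericycle than in the intact root (-1.76) while AT1G19540 was higher (1.61). AT5G62360 read 31.4, 11.1 and 51.9 in mock and 57.6, 30.4 and 14.5 in auxin-treated intact roots, which overlapped, whereas AT5G62350 read 781, 869 and 1023 and then 1608, 2637 and 2550, which did not.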

How the data were processed

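Single-colour arrays were hybridised with RNA that had been amplified and biotin-labelled, per the labels' protocols. The authors deposited 1 intensity per probe set and array on a linear scale, called signal here. MAS5 is the tool that the submitters' processing notes name, without a version or build. Scaling per array was visible in the deposited values: without the lowest and highest 2% of probe sets, array means were 246 to 248. No further normalization was applied. Of 22810 probe sets, 64 were controls and were left out, 13513 had 1 gene in the platform annotation, 503 had several and 8730 were unnamed here. Of the 13513, 13436 were found in the RefSeq gene table of TAIR10.1, used only for names, chromosomes and gene order. Genes without a symbol there are given by locus number with no role.

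Signals were analysed as log2(signal + 16), a scale that understates changes of low signals. Probe sets above the 40th percentile of their array in at least 3 of 30 arrays (9442) entered a fit of 10 group means with an intensity trend (limma 3.58.1 under R 4.3.3), leaving 20 residual degrees of freedom. P-values were adjusted by Benjamini-Hochberg over all 9442, and a call is an adjusted p under 0.05. The fit was also run on simulated data with independent normal noise and planted shifts. That simulation held no array-wide shift, shared batch or technical replicates, so it cannot speak to these limits. For arrays, their number limits the precision.

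The rule used 12 mock arrays, so tests were run only on comparisons among the other 18, in 7 contrasts. The members and lists were chosen with earlier results of these data known. Members named in the text were AT1G67870, members with a symbol, those with the largest and smallest differences or changes in each comparison, those not called and those next to the threshold. BIK1, EXLA3, AT5G62360 and other examples beyond that rule were chosen after their values were seen. Samples were not treated as paired by replicate number: no pair of groups checked had all same-number correlations of residuals over 0.1 (range -0.10 to 0.21). Auxin-treated stele and pericycle had 0.058, 0.128 and 0.211. Mock sorted groups were not checked, and with 3 arrays per group this check cannot exclude pairing or a shared batch. Alternatives were other pseudocounts, thresholds, filters and normalizations, array weights, a replicate block and leaving out each array. Promoter and protein sequences were not analysed here. Figures were drawn with matplotlib 3.10.9.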

Additional observations from a re-analysis of the deposited data

Results flagged for a closer look

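In 2 members every auxin-treated array moved one way in the sorted pericycle and the opposite way in the intact root, with no overlap with mock in either. Both were above mock in the pericycle and below it in the intact root, a pattern that 1.36% of all tested probe sets showed (0.794% showed the reverse). AT1G19540 changed by -0.71 on the log2 scale in the intact root, where its signals were 96.6, 142 and 112 in mock and 57.7, 81.7 and 56.7 with auxin, a change that the limma test did not call (adjusted p = 0.264). In the pericycle AT1G19540 changed by 0.95, from 120, 103 and 110 to 136, 160 and 537. The value of 537 is from auxin replicate 3, the array that stood apart for the members, and the size of the change leans on it. AT1G61660 changed by -0.92 in the intact root, where it was called, and by 0.38 in the pericycle. The differences between sample types were not tested, since the pericycle mock arrays had chosen the members.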

How the results depend on the processing

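The rule's own settings moved the membership most. The number of members was 64 as given, 33 with a pseudocount of 64, 116 with a threshold of 1.0, 35 with a threshold of 2.0 and 42 with a signal minimum of 200, and it ran from 60 to 73 when 1 mock array was left out. With the 35 members past a threshold of 2.0, 35 were higher in the auxin-treated pericycle than the mean of the other tissues (13.1% of all tested). Against single tissues the counts were 35 for the stele (13.6%), 35 for the epidermis (15.5%) and 34 for the columella (11.7%). Of these 35, 27 were higher and 4 lower in the pericycle than in the intact root (25.9% and 24.7% of all tested). In the other tissues, 5 were higher and 23 lower than in the intact root (31.3% and 27.3%). With auxin, 1 rose and 6 fell in the intact root (6.58% and 5.31%). With all 64 members and 1 array left out at a time, 63 to 64 stayed higher against the mean of the other tissues, 5 to 8 were lower in the pericycle than in the intact root and 4 to 6 fell in the intact root, where a pseudocount of 1 also gave 4; the largest count of falls under any alternative was 13. The median change in the stele was -0.0084 as given and turned to 0.0099 with a pseudocount of 64. The median change in the pericycle ran from 0.21 to 0.52 when 1 pericycle array was left out, an alternative added after seeing the data. The counts for the 35 members follow from fewer members; for the other shifts, the cause was not tested.

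Of 2758 recomputed values of single genes, 2724 kept their call, 34 lost it and 0 reversed. The intact root response held 33 of the lost calls out of 238, and AT3G63050 against the stele, with a pseudocount of 1, was the other. The fit with replicate number as a block gave 63, 63, 63 and 62 members higher against the mean of the other tissues, stele, epidermis and columella, 48 higher and 8 lower against the intact root, and 5 rises and 9 falls in the intact root. Array weights raised the calls over all probe sets in the intact root response from 1122 to 2051. Quantile normalization turned the split over all probe sets against the epidermis from 1460 higher and 1198 lower to 1228 and 1590. With 3 arrays per group, a member that was not called may still differ.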
